A study of Mus musculus with 24 samples.

Results

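Usp16, Ltn1, Cct8, Ttc3, Psmg1, Rwdd2b and N6amt1 are 7 genes of mouse chromosome 16 (Mmu16), most of them with roles in protein quality control, that are present in 3 copies in Ts65Dn mice and in 2 copies in wild-type (wt) mice. They were chosen by gene symbol and position, with no cutoff on a measured value, but with earlier results of these data known. The data held 55385 genes counted, of which 36766 had at least 1 count. The triplicated Mmu16 segment, taken here from Mir155hg to Zbtb21 (chr16:84703167-97962622, GRCm38), held 287 annotated genes, 133 of them protein coding. RNA-Seq was done on the hippocampus (HIP) and the entorhinal cortex (EC) of 12 male mice aged 5 to 6 months, 6 Ts65Dn and 6 wt littermates, which gave 24 libraries with between 23128589 and 40476492 counts on genes (median 28597506). Both genotypes were kept on an F1 B6C3B background. The Ts65Dn mice carried the extra copies on a freely segregating minichromosome that also holds a centromeric part of Mmu17, from Scaf8 to Pde10a, with no counterpart on human chromosome 21. Libraries are named below by genotype and replicate number, and the HIP and EC libraries with the same genotype and number came from the same mouse.

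Cells keep their proteome in order by folding new chains, by clearing chains that stall or misfold, and by adding and removing ubiquitin. Ltn1 (listerin) is the ubiquitin ligase of ribosome quality control and marks chains stuck on a stalled large ribosomal subunit. Cct8 is the theta subunit of TRiC, the ring-shaped chaperonin that folds actin and tubulin. Psmg1 pairs with Psmg2 to guide assembly of the proteasome core. Ttc3 is a ubiquitin ligase of phosphorylated Akt that also works with citron kinase and RhoA in neurite growth. Usp16 removes ubiquitin from histone H2A. N6amt1, with its partner Trmt112, methylates the translation release factor Etf1. Rwdd2b carries an RWD domain and its role is little known. All 7 lie in the part of Mmu16 that matches human chromosome 21, so each is also present in an extra copy in Down syndrome.

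N6amt1 (ENSMUSG00000044442, chr16:87354185-87368742, plus strand), Ltn1 (ENSMUSG00000052299, chr16:87376651-87432612, minus), Rwdd2b (ENSMUSG00000041079, chr16:87433407-87440573, minus), Usp16 (ENSMUSG00000025616, chr16:87454703-87483517, plus) and Cct8 (ENSMUSG00000025613, chr16:87483326-87495873, minus) are neighbours within 141.7 kb. Ttc3 (ENSMUSG00000040785, chr16:94370618-94469343, plus) and Psmg1 (ENSMUSG00000022913, chr16:95979933-95990960, minus) lie further along the segment. The ends of Usp16 and Cct8 share 192 exonic bases on opposite strands, and the start of Ttc3 shares 326 exonic bases with Pigp, also on the opposite strand. The library kit marks strand, but the strand setting of the counting is not given in the sources used here. How reads in these shared bases were counted is therefore not known. Usp16 had fewer counts than its partner, 16723 over all libraries against 181846 for Cct8.

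The stretch around each start site is shown because the genes share a position and a copy number, and the sequences show how far they share promoter letters. RefSeq (GRCm38.p6) gave a promoter for 6 of the 7 genes, with no entry used for Rwdd2b. The 150 bases printed run from 100 before to 50 after the start, on the strand of the gene. Capitals mark 2 motifs, searched on both strands: CGCATGCGC, the core bound by NRF1, whose overlapping matches on either strand together cover the capitals shown, and CCGGAAG, a core bound by ETS factors.
N6amt1, chr16:87354085-87354234, plus: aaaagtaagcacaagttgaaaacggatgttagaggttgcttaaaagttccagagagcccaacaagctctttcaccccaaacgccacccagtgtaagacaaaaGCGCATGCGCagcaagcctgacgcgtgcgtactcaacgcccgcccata
Ltn1, chr16:87432557-87432706, minus: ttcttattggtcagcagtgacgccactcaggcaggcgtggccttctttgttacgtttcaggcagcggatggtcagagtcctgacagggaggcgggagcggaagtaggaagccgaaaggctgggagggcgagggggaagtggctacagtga
Usp16, chr16:87454885-87455034, plus: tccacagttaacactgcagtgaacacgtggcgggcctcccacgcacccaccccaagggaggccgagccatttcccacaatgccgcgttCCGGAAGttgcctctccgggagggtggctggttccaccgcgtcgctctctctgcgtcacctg
Cct8, chr16:87495820-87495969, minus: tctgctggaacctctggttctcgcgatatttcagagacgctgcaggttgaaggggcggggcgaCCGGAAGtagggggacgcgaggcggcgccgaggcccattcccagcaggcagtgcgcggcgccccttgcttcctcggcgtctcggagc
Ttc3, chr16:94370639-94370788, plus: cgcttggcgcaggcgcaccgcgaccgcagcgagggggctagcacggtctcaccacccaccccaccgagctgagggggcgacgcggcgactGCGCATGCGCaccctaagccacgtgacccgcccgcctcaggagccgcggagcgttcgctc
Psmg1, chr16:95990911-95991060, minus: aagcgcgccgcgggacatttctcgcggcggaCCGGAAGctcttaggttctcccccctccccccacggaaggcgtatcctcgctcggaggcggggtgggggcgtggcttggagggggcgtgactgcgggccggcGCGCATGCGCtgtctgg

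The NRF1 core was found in the 300-base promoters of N6amt1, Ttc3 and Psmg1, and in 1.81% of 27025 promoters of the same length. The ETS core was found in Usp16, Cct8 and Psmg1, and in 9.12% of all promoters. Psmg1 thus held both, and Ltn1 held neither. The antioxidant response element TGACNNNGC matched in N6amt1 and in 12.5% of all promoters. A TATA box (TATAAA, 14.2% of all promoters), a full cAMP response element (TGACGTCA, 1.88%) and paired heat shock repeats (GAANNTTC, 7.95%) had no match in these 6 windows. The CCAAT box matched in Ltn1 and Ttc3 (37.9% of all promoters) and the GC box GGGCGG in N6amt1, Cct8 and Ttc3 (35.9%). GC content ran from 41.0% in N6amt1 to 68.7% in Ttc3, against a median of 52.7% over all promoters. The motifs were chosen after these sequences had been read, and a match describes letters only.

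Before any comparison, 1 Ts65Dn mouse went against its label. Over the tested genes of the segment, the median level relative to the wt mean was between 1.44 and 1.54 in HIP of the other 5 Ts65Dn mice and between 1.47 and 1.54 in their EC. In the library labelled Ts65Dn replicate 3 it was 1.02 in HIP and 1.002 in EC, near the wt libraries, which lay between 0.980 and 1.01 in HIP and between 0.981 and 1.01 in EC. The Mmu17 genes of the minichromosome gave the same picture, with 1.01 and 0.964 in that mouse and between 1.41 and 1.51 in the others. The label was kept, and the main values of each comparison are given with and without this mouse. The regions matched their markers. All 6 hippocampal genes (among them Prox1 and Lct) were called higher in HIP in both genotypes, with a summed level between 436 and 653 CPM there and between 25.4 and 35.2 CPM in EC. Between genotypes, 1 of 36 marker genes of 10 lists was called in HIP and 2 of 35 tested in EC, named after their values were seen. P2ry12, a microglial receptor, fell to 0.831 of wt in HIP (edgeR adjusted p = 0.0422) and to 0.732 in EC (edgeR adjusted p = 0.0226). It was also called without the mouse labelled Ts65Dn replicate 3 (0.832 and 0.746 of wt). Of 3 microglial markers it was the 1 called, and their summed level overlapped between the genotypes in both regions. Median sums were 156.9 CPM in wt and 153.1 in Ts65Dn in HIP, and 186.4 and 173.5 in EC. The dopamine receptor Drd2, at most 6.92 CPM, rose to 2.94-fold in EC (edgeR adjusted p = 0.0254) and to 3.26-fold without that mouse. The cortical gene Rorb was called in EC once that mouse was left out (0.726 of wt, edgeR adjusted p = 0.0422), and with all mice it was at 0.776 (edgeR adjusted p = 0.126). The part of these markers in the results was not tested. The choroid plexus list varied widely within each genotype, between 85.1 and 4777 summed CPM in the HIP of wt mice and between 50.8 and 5025 in that of Ts65Dn mice. In bulk tissue, fewer cells that express a gene and less RNA per cell cannot be told apart.

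The level of each gene is given in TMM CPM, counts scaled to library size and composition. Ttc3 was by far the most counted, with between 28203 and 76039 counts per library, and Psmg1 the least, with between 176 and 502. Ttc3 ran from 1063 to 1170 CPM in the HIP of wt mice (median 1106) and between 1237 and 1508 in their EC (median 1427). In the other 5 Ts65Dn mice it ran from 1621 to 1767 in HIP and from 2078 to 2226 in EC. The library labelled Ts65Dn replicate 3 had 1098 in HIP and 1365 in EC. The genotypes were far apart except for that mouse, which fell inside the wt range in both regions.

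Cct8, the chaperonin subunit, had the tightest wt HIP values, from 191 to 201 CPM (median 197), and from 225 to 245 (median 239.7) in the wt EC. The other 5 Ts65Dn mice ran from 279 to 296 in HIP and from 315 to 376 in EC. The library labelled Ts65Dn replicate 3 had 175 in HIP, below each wt mouse, and 226 in EC.
For the ribosome quality control ligase Ltn1, wt values ran from 77.8 to 86.7 CPM in HIP (median 82.9) and from 78.4 to 92.7 in EC (median 87.9). The other 5 Ts65Dn mice ran from 109 to 129 in HIP and from 118 to 141 in EC. In the library labelled Ts65Dn replicate 3 the values were 82.6 and 76.1. Both genes therefore separated the genotypes in each region once that mouse was set aside.

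Psmg1, the proteasome assembly factor, ran from 6.57 to 7.87 CPM in the HIP of wt mice (median 6.92) and between 8.14 and 8.59 in their EC (median 8.48). The other 5 Ts65Dn mice had 10.8 to 12.4 in HIP and 11.4 to 13.8 in EC. For the library labelled Ts65Dn replicate 3 it was 7.79 in HIP, inside the wt range, and 9.40 in EC, above each wt mouse. The other 5 mice were clear of the wt range in both regions. Rwdd2b ran from 10.0 to 12.3 CPM in the HIP of wt mice (median 10.997) and between 9.52 and 12.2 in their EC (median 11.2). The other 5 Ts65Dn mice had 15.2 to 17.8 in HIP and 16.8 to 19.9 in EC. At 10.5 and 10.8, the library labelled Ts65Dn replicate 3 was inside both wt ranges.

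Usp16, the H2A deubiquitinase, ran from 21.95 to 25.2 CPM in the HIP of wt mice (median 23.6) and between 14.5 and 16.97 in their EC (median 15.96). The other 5 Ts65Dn mice had 30.7 to 35.0 in HIP and 21.1 to 27.4 in EC. In the library labelled Ts65Dn replicate 3 it had 26.1 in HIP, above each wt mouse, and 15.2 in EC.
N6amt1, the release factor methyltransferase, stood apart. Its wt values ran from 19.0 to 22.2 CPM in HIP (median 20.02) and from 12.4 to 17.3 in EC (median 13.8). The other 5 Ts65Dn mice had 24.9 to 27.2 in HIP, all above wt, and 16.5 to 25.9 in EC, where 4 of the 5 were above each wt mouse. The library labelled Ts65Dn replicate 3 had 13.2 CPM (382 counts) in HIP and 7.99 (221 counts) in EC, below each wt mouse in both regions, at 0.657 and 0.558 of the wt mean.

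**Figure D1:**
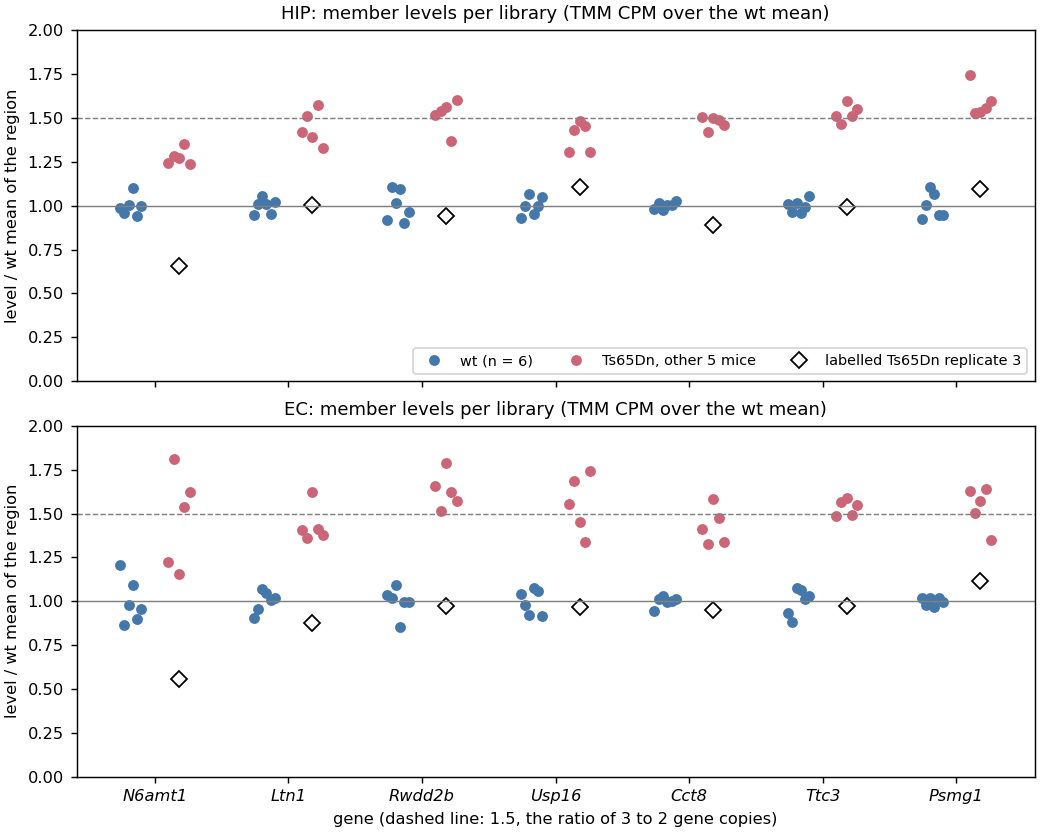
Level of the 7 genes in each of the 24 libraries, as TMM CPM divided by the wt mean of the region (vertical axis, no unit), for wt (blue, n = 6), the other 5 Ts65Dn mice (red) and the library labelled Ts65Dn replicate 3 (open diamond). Lines mark 1 and 1.5, and the diamond lies within or near the wt points except for N6amt1, where it falls to 0.657 in HIP and 0.558 in EC.

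All 7 genes had a fold change above 1 in Ts65Dn in both regions, and 5 of 7 rose in each region by edgeR's quasi-likelihood test with Benjamini-Hochberg adjustment over all genes. Genes called higher in this way made up 0.542% of the 17355 genes tested in HIP and 1.15% of the 17049 tested in EC. Within the triplicated segment, 42 of 90 tested genes (46.7%) were called higher in HIP and 43 of 87 (49.4%) in EC. In HIP, Psmg1 (1.51-fold, 95% interval 1.30 to 1.75), Ttc3 (1.43-fold, 1.246 to 1.65), Cct8 (1.37-fold, 1.18 to 1.60), Ltn1 (1.37-fold, 1.21 to 1.55) and Usp16 (1.34-fold, 1.21 to 1.49) rose, with edgeR adjusted p-values between 0.0139 for Usp16 and 0.049 for Cct8. Rwdd2b (1.42-fold, edgeR adjusted p = 0.0553) and N6amt1 (1.17-fold, edgeR adjusted p = 0.470) did not pass. In EC, Rwdd2b (1.51-fold, 1.26 to 1.81), Psmg1 (1.46-fold, 1.27 to 1.67), Usp16 (1.45-fold, 1.22 to 1.72), Ttc3 (1.44-fold, 1.23 to 1.67) and Cct8 (1.34-fold, 1.17 to 1.54) rose, with edgeR adjusted p-values between 0.0111 for Psmg1 and 0.0309 for Usp16 and Cct8. Ltn1 (1.33-fold, edgeR adjusted p = 0.0587) and N6amt1 (1.31-fold, edgeR adjusted p = 0.325) did not pass there.

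Without the library labelled Ts65Dn replicate 3, 7 of 7 rose in each region, where 1.06% of genes in HIP and 1.42% in EC were called higher. Of the tested segment genes, 63.0% in HIP and 69.7% in EC were then called higher. Folds then ran from 1.27 for N6amt1 to 1.59 for Psmg1 in HIP, and from 1.42 for Cct8 to 1.62 for Rwdd2b in EC. The edgeR adjusted p was 0.00372 or less in HIP and 0.0302 or less in EC, N6amt1 having the highest in both. The 5 remaining Ts65Dn mice all lay above all 6 wt mice for 7 of 7 genes in HIP and 6 of 7 in EC, the exception being N6amt1. Over all genes tested, 1.95% in HIP and 2.21% in EC showed this. With all 6 Ts65Dn mice, that held for 1 of the 7 genes in each region, Usp16 in HIP and Psmg1 in EC. The share over all genes was not taken for this comparison with all 6 mice. The mouse labelled replicate 3 was singled out by low levels of the segment, which holds these 7 genes. The calls, folds and non-overlap without it are therefore not independent of that choice. Leaving out any other single mouse left between 2 and 4 of the 7 called in HIP and between 1 and 5 in EC. No share of all genes was taken for those fits.

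**Figure D2:**
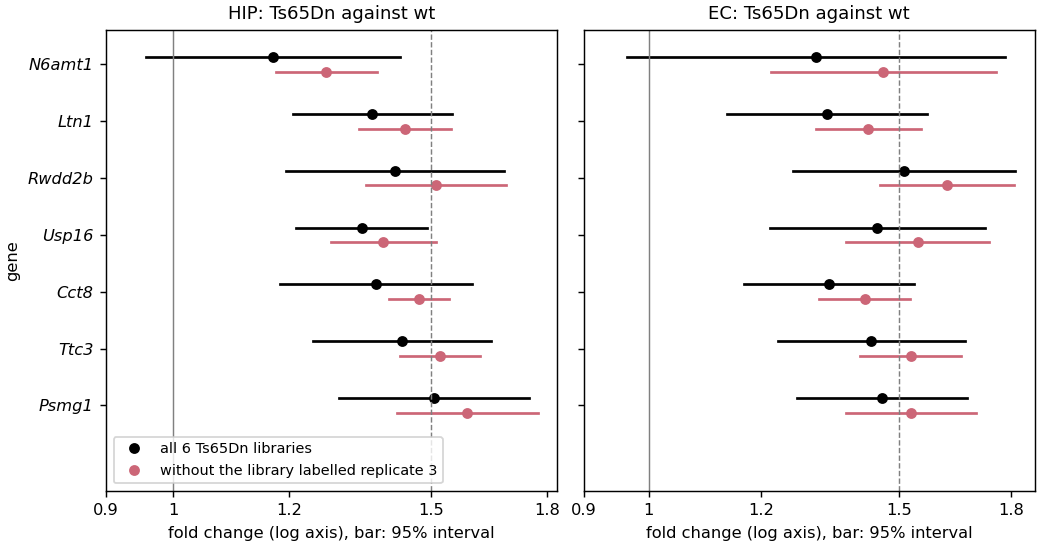
Fold change of each gene in Ts65Dn against wt (horizontal log axis) with its 95% interval, for all 6 Ts65Dn mice (black) and without the library labelled replicate 3 (red), in HIP and the EC against 6 wt mice. Leaving out that mouse moved each fold to the right and narrowed each interval, and the N6amt1 interval in HIP then ended at 1.38, short of the dashed line at 1.5.

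An extra copy predicts a fold of 1.5. With all mice, the 95% interval held 1.5 for 5 of 7 genes in HIP and 7 of 7 in EC. By edgeR's test of each fold against 1.5, adjusted over the tested genes of the segment, 0 of 7 were below 1.5 in either region, where 2.22% of 90 segment genes in HIP and 2.30% of 87 in EC were. Before adjustment, 2 of 7 were below 1.5 at the 0.05 level in HIP, namely Usp16 and N6amt1, against 13.3% of the segment, and 0 of 7 in EC, against 10.3%. Their unadjusted p-values in the fit over all genes were 0.0392 for Usp16 and 0.0183 for N6amt1 (edgeR). Without the library labelled Ts65Dn replicate 3, N6amt1 was below 1.5 in HIP (1.27-fold, 95% interval 1.18 to 1.38, edgeR adjusted p = 0.019), so 1 of 7 against 3.26% of the segment. In EC its fold was then 1.46 (1.22 to 1.76) and 0 of 7 were below, against 1.12%.

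The order of the 7 genes varied between individual mice, whose values come from the same counts as the folds. The highest of the 7 in HIP was Psmg1 in Ts65Dn replicate 1, Rwdd2b in replicates 2 and 6, Ttc3 in replicate 4 and Ltn1 in replicate 5. In HIP, N6amt1 was the lowest of the 7 relative to wt in 5 of the other 5 Ts65Dn mice, from 1.24 to 1.35 of the wt mean, and in 0 of them did it reach 1.5. Usp16 also stayed under 1.5 in HIP of each of these mice, from 1.30 to 1.48. Psmg1 was above 1.5 in HIP of all 5, from 1.53 to 1.75. Ttc3 ran from 1.46 to 1.60 in HIP and from 1.48 to 1.59 in EC. In EC, N6amt1 varied more, from 1.15 to 1.81, and was the lowest of the 7 in 2 of 5 mice, while Rwdd2b was above 1.5 in all 5, from 1.51 to 1.79. N6amt1 was also the most variable gene among wt EC libraries, with a coefficient of variation of 12.9%, against 2.37% for Psmg1 and 2.91% for Cct8.

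Within the segment the 7 genes were spread through the range of folds. Without the library labelled Ts65Dn replicate 3, the median fold of the 92 segment genes tested in HIP was 1.48 and that of the 7 genes was 1.47. In EC the median of 89 segment genes was 1.48 and that of the 7 genes 1.53. The median log2 fold change over all genes tested was 0.00 in both. By rank from the highest fold, Psmg1 was 22nd and N6amt1 85th of 92 in HIP, and Rwdd2b was 18th and Cct8 65th of 89 in EC. The 5 neighbouring genes did not share a rank. From N6amt1 to Cct8 along the chromosome, the HIP ranks were 85, 59, 40, 69 and 48. With all mice the segment medians were 1.41 in HIP and 1.42 in EC, against 1.37 and 1.44 for the 7 genes.

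**Figure D3:**
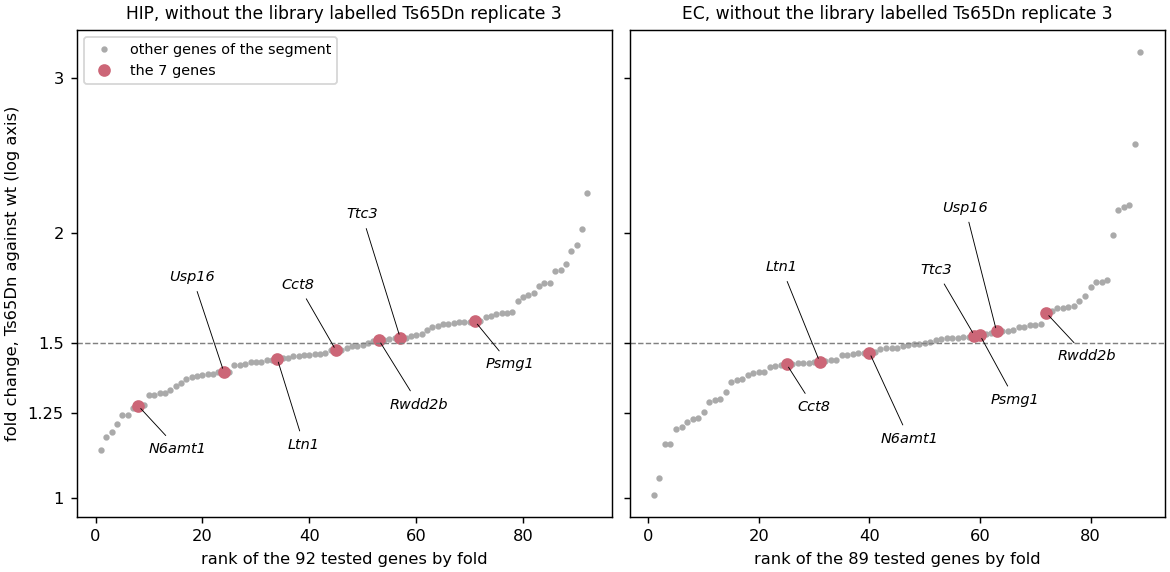
Tested genes of the Mmu16 segment ranked by fold change in Ts65Dn against wt (vertical log axis) without the library labelled Ts65Dn replicate 3, with the 7 genes in red and other genes in grey. In HIP the 7 run from N6amt1 at 1.27 to Psmg1 at 1.59, and in EC from Cct8 at 1.42 to Rwdd2b at 1.62, around the dashed line at 1.5.

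Per kilobase of exon, the scale that allows levels of different genes to be compared, Ttc3 and Cct8 were far above the others. In the wt HIP, Ttc3 had 68.3 ± 2.43 CPM per kb (SD, n = 6) and Cct8 63.5 ± 1.29, with no overlap between them. Ltn1 followed at 10.5 ± 0.436 and Psmg1 at 5.28 ± 0.392. The lowest were N6amt1 at 3.28 ± 0.185, Rwdd2b at 2.84 ± 0.247 and Usp16 at 2.49 ± 0.131, where each overlapped the next. In the wt EC the order was Ttc3, Cct8, Ltn1, Psmg1, Rwdd2b, N6amt1 and Usp16. There the ranges of Ttc3 and Cct8 overlapped, as did those of Rwdd2b and N6amt1.

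The regions differed for 5 of 7 genes in wt mice, tested with edgeR with the mouse as a block, since both regions came from the same animals. This is near the background, as 61.3% of all genes tested differed between the regions. Usp16 (1.49-fold, edgeR adjusted p = 2.59e-05) and N6amt1 (1.41-fold, edgeR adjusted p = 5.2e-05) were higher in HIP, each in 6 of 6 wt mice. Ttc3 (0.791 of EC level), Cct8 (0.823) and Psmg1 (0.840) were lower in HIP, each in 6 of 6 wt mice, with edgeR adjusted p-values of 7.92e-05, 2.16e-05 and 0.00879. Ltn1 (0.945-fold, edgeR adjusted p = 0.0647) and Rwdd2b (0.995-fold, edgeR adjusted p = 0.945) did not pass.
In Ts65Dn mice 5 of 7 also differed, against 52.3% of all genes. Usp16 was 1.39-fold and N6amt1 1.29-fold higher in HIP, in 6 and 5 of 6 mice. Ttc3 (0.786-fold), Cct8 (0.839-fold) and Psmg1 (0.864-fold) were lower in HIP in 6 of 6 mice, with an edgeR adjusted p of 0.0254 for Psmg1, the highest of the 5. Psmg1 kept its call in 1 of the 6 fits that left out a Ts65Dn mouse, with edgeR adjusted p-values between 0.0174 and 0.0964. Without the mouse labelled Ts65Dn replicate 3, 4 of 7 passed, and Psmg1 did not (edgeR adjusted p = 0.0547). The share of all genes that differed was not taken for that fit. Levels of cell type markers differed between the regions. Of 3 neuronal markers (Snap25, Syt1 and Rbfox3), 2 were called lower in the wt HIP, with a summed level between 4411 and 5085 CPM there and between 5580 and 7034 in the wt EC. The 3 endothelial markers were also called lower there, with sums between 128 and 149 CPM against 170 to 205, as were the 3 microglial markers. In Ts65Dn mice 1 neuronal, 3 endothelial and 2 microglial markers were called lower in HIP. Other markers ran the opposite way. The 3 choroid plexus markers were called higher in HIP in both genotypes, with sums between 85.1 and 4777 CPM in the wt HIP and between 11.1 and 48.1 in the wt EC, and the myelin genes Mbp and Mog were 3.78-fold and 4.38-fold higher in the wt HIP and 3.61-fold and 4.26-fold higher in that of Ts65Dn mice. Of 3 astrocyte markers, 2 were called higher and 1 lower in HIP in both genotypes. The part of all these markers in the differences of the 7 genes was not tested.

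**Figure D4:**
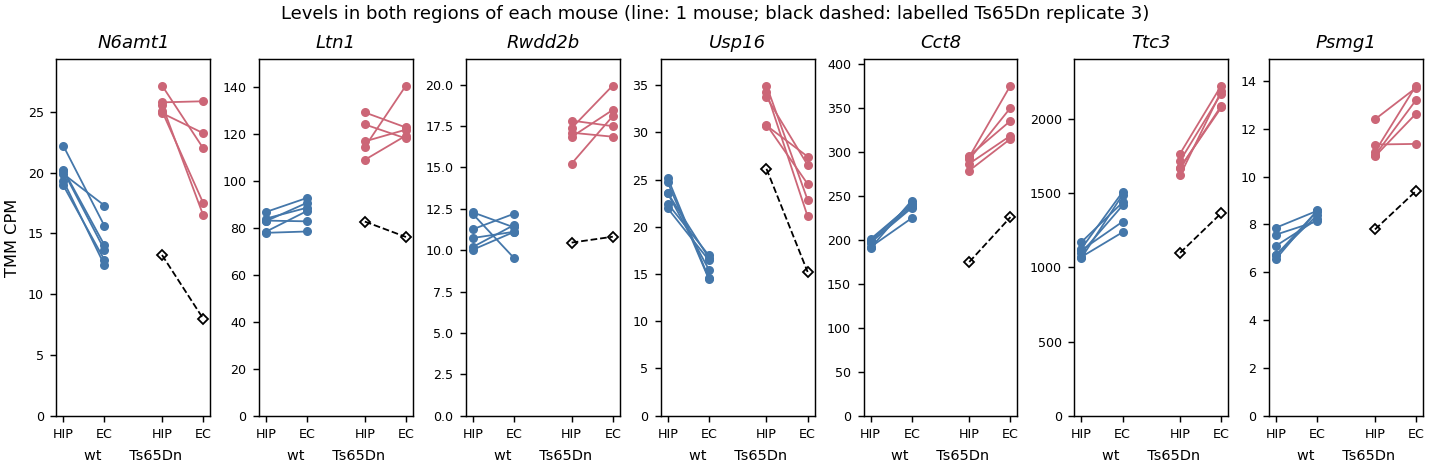
TMM CPM of the 7 genes in HIP and EC of each mouse, 1 line per mouse, for wt (blue, n = 6) and Ts65Dn (red, n = 5), with the mouse labelled Ts65Dn replicate 3 in black and dashed. Lines for Usp16 fall from HIP to the EC in all 12 mice, and those for Ttc3, Cct8 and Psmg1 rise in all 12.

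The genotype effect was not shown to differ between the regions. In the interaction fit with edgeR, 0 of 7 genes passed after adjustment and 0 of 7 at an unadjusted p under 0.05, against 0% and 4.10% of the 18109 genes tested. The lowest unadjusted edgeR p was 0.291, for N6amt1, whose fold in HIP was 0.911 of that in EC, with a 95% interval from 0.760 to 1.09. The interval was tightest for Cct8, from 0.942 to 1.10. Without the library labelled Ts65Dn replicate 3, 0 of 7 passed either, and N6amt1 had a ratio of 0.873 (edgeR unadjusted p = 0.116).

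Genes that work with these proteins but are not triplicated were read from 7 lists of 86 genes, 84 of them tested in each region. In HIP 2 of 84 passed the test, against 1.04% of all genes, and 16 of 84 (19.0%) at an unadjusted p under 0.05, against 14.8%. In EC 2 of 84 passed, against 2.50%, and 14 of 84 (16.7%) at an unadjusted p, against 19.0%. Without the library labelled Ts65Dn replicate 3, 3 of 84 passed in HIP, against 1.82%, and 1 of 84 in EC, against 2.79%. The median log2 fold change over the lists was -0.01 in HIP and 0.00 in EC, against 0.00 over all genes in both. Leaving out any other single mouse left between 0 and 2 partner genes called in each region.

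The partner genes called lower were Bmi1 and Rnf2, of the H2A ubiquitination list around Usp16. Bmi1, a subunit of the Polycomb complex that places ubiquitin on H2A, had 54.2 to 59.0 CPM in the wt HIP (median 57.0) and 45.0 to 53.8 in Ts65Dn (median 46.1), with no overlap. In EC it had 39.1 to 44.5 CPM in wt (median 42.3) and 28.8 to 41.2 in Ts65Dn (median 32.3), where the groups overlapped. It fell to 0.841 of wt in HIP (edgeR adjusted p = 0.0299) and to 0.796 in EC (edgeR adjusted p = 0.0485). Bmi1 lay below the wt mean in 6 of 6 Ts65Dn mice in both regions. These include the mouse labelled Ts65Dn replicate 3, whose segment level was near wt. In EC that mouse had the lowest Bmi1 value, 28.8 CPM, and the lowest of the other Ts65Dn mice was 30.1. Rnf2, the catalytic ligase of that complex, fell to 0.819 of wt in EC (edgeR adjusted p = 0.0455), with 47.1 to 53.7 CPM in wt (median 50.3) and 36.3 to 46.7 in Ts65Dn (median 41.2) and no overlap. The lowest of these Rnf2 values was again that of the mouse labelled Ts65Dn replicate 3, and the lowest of the other Ts65Dn mice was 36.7. In HIP Rnf2 was at 0.859 of wt (edgeR adjusted p = 0.193). Of the 14 list members tested, 1 fell and 0 rose in HIP, where 0.501% of all genes were called lower, and 2 fell and 0 rose in EC, where 1.35% were. Without the library labelled Ts65Dn replicate 3, Bmi1 stayed called in HIP (0.846 of wt, edgeR adjusted p = 0.0364), but in EC neither Bmi1 (0.820, edgeR adjusted p = 0.0667) nor Rnf2 (0.840, edgeR adjusted p = 0.0618) passed. Usp22, another H2A deubiquitinase, was then called higher in HIP (1.14-fold, edgeR adjusted p = 0.0236). It was named after its values were seen.

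Rhoa, the small GTPase of the Ttc3 and citron list, had 58.8 to 64.2 CPM in the HIP of wt mice (median 62.9) and 68.0 to 77.4 in Ts65Dn (median 71.5), with no overlap. It rose to 1.15-fold (edgeR adjusted p = 0.0277). It was the 1 gene called of 5 tested, and it was called without the library labelled Ts65Dn replicate 3 too (1.17-fold, edgeR adjusted p = 0.0135). In EC it was at 1.13-fold (edgeR adjusted p = 0.123), and 0 of 5 were called, also without that library (1.12-fold, edgeR adjusted p = 0.165).

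In the other 5 lists, 0 genes passed edgeR's test in either region with all mice. Before adjustment, 14.8% of all genes in HIP and 19.0% in EC passed, the background for the unadjusted counts below. The ribosome quality control list around Ltn1 (17 genes) had medians of 0.03 in HIP and 0.04 in EC on the log2 scale of fold change, 3 and 1 of 17 passing before adjustment. Its medians were 0.04 and 0.01 without the library labelled Ts65Dn replicate 3. Its lowest p was that of Gtpbp2, a GTPase that acts at stalled ribosomes (1.15-fold in EC, edgeR adjusted p = 0.0786). The TRiC list around Cct8 had 15 genes tested and medians of -0.04 and -0.02, with 3 and 2 of 15 at an unadjusted p under 0.05. Without that library the medians were -0.03 and -0.04. Pdcl, a phosducin-like cochaperone of TRiC, had the lowest p (0.864 of wt in EC, edgeR adjusted p = 0.0679).

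Among 9 proteasome assembly factors around Psmg1, 0 passed before adjustment in HIP and 1 did in EC, Psmd5 (0.921 of wt, edgeR adjusted p = 0.195), a chaperone of the regulatory particle. Of the 14 subunits of the proteasome core, 3 and 2 did, with Psma6 lowest (0.932 of wt in HIP, edgeR adjusted p = 0.191). Of 10 genes of translation termination and Trmt112 partners around N6amt1, 2 and 1 did, with the tRNA methyltransferase Alkbh8 lowest (0.886 of wt in HIP, edgeR adjusted p = 0.109). In this last list Gspt2, a release factor GTPase, was called in EC without the library labelled Ts65Dn replicate 3 (1.17-fold, edgeR adjusted p = 0.044), and it too was named after its values were seen.

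**Figure D5:**
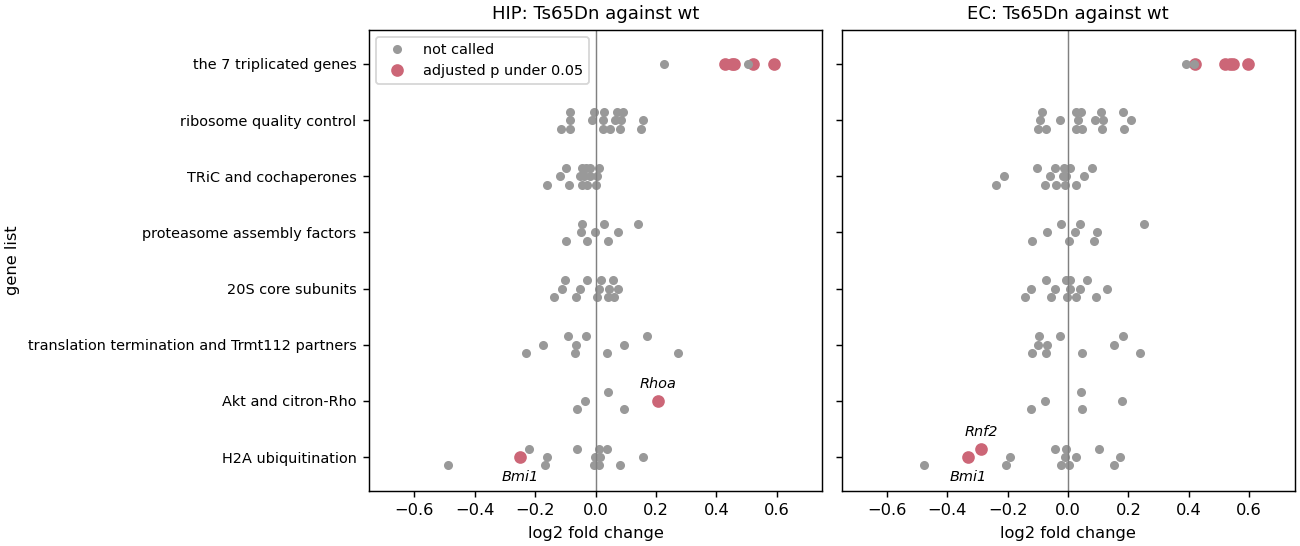
Log2 fold change in Ts65Dn against wt (horizontal axis) of the 7 triplicated genes and of 84 partner genes in 7 lists, in HIP and the EC, with genes of adjusted p under 0.05 in red. The triplicated genes lie between 0.23 and 0.60 and the lists gather around 0, with Bmi1 (HIP -0.25, EC -0.33), Rnf2 (EC -0.29) and Rhoa (HIP 0.21) called.

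The genes whose pattern over the 24 libraries was most like each of the 7 were mostly other triplicated genes, as libraries share genotype and region. Correlations are Pearson's r of log2 CPM among 16592 genes and are given as a description. Cct8 and Ttc3 were most like App (r = 0.97 and 0.96) and each other (r = 0.97). Psmg1 was most like Sod1 (r = 0.97), Ltn1 most like Dyrk1a (r = 0.96) and Synj1 (r = 0.96), and Rwdd2b most like Mrpl39 (r = 0.94). Usp16 was most like Paxbp1 (r = 0.95) and then Prpf40b on chromosome 15 (r = 0.94). N6amt1 was most like Gabpa (r = 0.87), and Pex11a on chromosome 7 came after another gene of the segment (r = 0.84). Of the 20 genes most like each, between 10 (N6amt1 and Usp16) and 18 (Ltn1) lay in the segment. Among themselves the 7 fell into a close set of Ltn1, Rwdd2b, Cct8, Ttc3 and Psmg1, with pairwise r between 0.85 and 0.97, and the pair N6amt1 and Usp16 (r = 0.81), both higher in HIP. Between N6amt1 and Cct8 r was 0.34. Without both libraries of the mouse labelled Ts65Dn replicate 3, r for N6amt1 and Usp16 was 0.91.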

How the data were processed

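Raw counts per gene, as deposited, were used as 6 libraries per genotype and region. The authors used Hisat2 to align single-end reads to GRCm38 (Ensembl 99) and made the counts with HTSeq-count, without normalization. Sources differ on enrichment, as a total RNA kit and polyA RNA are named in the methods and an mRNA kit in the labels. Identifiers were looked up in GENCODE vM21, where 99.6% were found. The number of rows without a gene was 0, as was that of columns not used. Ts66Yah libraries and the authors' own comparison columns were not used here.

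DEGs were called within each region with edgeR 4.0.16 (R 4.3.3), TMM, filterByExpr, quasi-likelihood test and a Benjamini-Hochberg adjusted p under 0.05 over all genes tested. Folds were tested against 1.5 with an offset and adjusted over the segment. Region and interaction fits had a term for each mouse. Alternatives were DESeq2 1.42.0, DESeq2 size factors, dropping the low-count filter, requiring 10 counts in all libraries, a block for replicate number and each mouse left out. Log2 CPM had a prior count of 2. The code was tested on simulated data.

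The 7 genes and all lists were chosen with earlier results of these data known. Named partners were up to 3 called genes per list, by p, or else the gene with the lowest p, and for likeness the 3 genes with the highest r. Ranks, non-overlap and likeness without the mouse labelled Ts65Dn replicate 3 were added after seeing the data. The values of 1 marker gene are not reported here. P-values of the genotype fits measure the spread between these 12 mice. Those of the region and interaction fits measure how the difference between the regions within a mouse varies from mouse to mouse.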

Additional observations from a re-analysis of the deposited data

Results flagged for a closer look

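In 8 of 28 groups of 6 libraries (7 genes, 2 genotypes, 2 regions), 1 library lay far from the rest, its gap to the next exceeding Dixon's limit. For independent groups this limit flags about 1 in 20 by chance. These groups are not independent, as they hold 7 genes of the same segment in the same libraries. In 8 of 8 flagged groups the outlying library was that labelled Ts65Dn replicate 3, and it was the lowest of its group. In HIP it had 13.2 CPM for N6amt1, 10.5 for Rwdd2b, 175 for Cct8, 1098 for Ttc3 and 7.79 for Psmg1. In EC it had 76.1 CPM for Ltn1, 10.8 for Rwdd2b and 1365 for Ttc3. Ltn1 and Usp16 in HIP, and N6amt1, Usp16, Cct8 and Psmg1 in EC, were not beyond the limit. The mouse labelled Ts65Dn replicate 3 had already been singled out by low levels of the segment. These flags are therefore not independent of that choice.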

How the results depend on the processing

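No single-gene result that was called reversed under the alternatives run, and 582 of 658 values stayed on the same side of the threshold, 66 lost it and 10 gained it. The 658 include tests against 1.5-fold and of the interaction. None of these was called in the main fit, so none could lose a call. Of the 7 genes, 5 were called higher in each region. DESeq2 called 6 in each, and other scalings and filters between 4 and 6. For genotype, the share of all genes called was taken only for the main fit and that without Ts65Dn replicate 3. Leaving out 1 mouse gave 2 to 7 in HIP and 1 to 7 in EC, 7 being without Ts65Dn replicate 3. The HIP count fell to 2 when wt replicate 2, 3 or 5 or Ts65Dn replicate 6 was left out, and to 3 when wt replicate 6 or Ts65Dn replicate 1 or 4 was left out. The EC count fell to 1 when Ts65Dn replicate 1 or 4 was left out, to 2 for wt replicate 4 or 5, and to 3 for wt replicate 1, 3 or 6 or Ts65Dn replicate 2. Genes of the 7 below 1.5-fold in HIP were 0 to 1 when 1 mouse was left out, and 2 at an unadjusted p. Partner genes called were 2 in each region, 5 in HIP and 6 in EC by DESeq2, and 1 and 0 without a filter on low counts. They were 0 to 3 in HIP and 0 to 2 in EC with 1 mouse left out. The HIP count was 0 for wt replicate 2, 3, 5 or 6 and Ts65Dn replicate 1, 4 or 6, and 1 for wt replicate 4. The EC count was 0 for each wt mouse but replicate 2 and for Ts65Dn replicate 1, 2 or 4, and 1 for wt replicate 2 and Ts65Dn replicate 3 or 5.

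With the replicate number as a block, 0 of the 7 genes and 0 partner genes were called by edgeR in either region. At an unadjusted p under 0.05, 6 of the 7 genes passed in each. The share of all genes was not taken for this fit, and the cause of the lost calls was not tested. The labels give no pairing of wt with Ts65Dn mice by number, and a shared litter or batch was not tested. Deviations of same-numbered libraries were correlated between -0.223 and 0.166 in HIP and between -0.103 and 0.165 in EC. In each region 1 of 6 was closest to its own number. Without the mouse as a replicate block, regions differed for 2 of the 7 genes in Ts65Dn instead of 5, and the share of all genes was not taken. The 2 regions of a mouse had deviations correlated between 0.229 and 0.488. The SE was largest for N6amt1, at 0.134 in HIP and 0.207 in EC on the log2 scale.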
